A study of Mus musculus with 2 samples.

Results

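Endothelial junction genes encode the proteins that seal the contact between neighbouring cells of the vessel wall. The 8 genes described here, Cldn5, Cdh5, Pecam1, Esam, Ocln, Tjp1, F11r and Jam2, were taken by symbol from 31053 genes in the deposited tables. Each symbol matched 1 row in both libraries. Their levels were read in 3 endothelial subsets of the mouse lung: cells with more Car4 than Ntrk2 transcripts, cells with more Ntrk2 than Car4 transcripts, and cells with neither.

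By the labels, the libraries were made from lungs of NG2tdT mice, a cross of NG2-Cre-ER with the Ai14 tdTomato reporter, in which tamoxifen turns on a red fluorescent protein in cells using the NG2 (Cspg4) promoter and in their descendants. All mice in both groups received tamoxifen (2 mg per 30 g body weight) and then rested for 7 days. Hypoxia mice then breathed 10% inspired oxygen for 21 days, and Normoxia mice received no such treatment. The labels call the cells tdT sorted and mention replicates, yet there was 1 matrix for each group. Whether animals were pooled is not stated, and age is known only as a range over all mice of the study.

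With 1 library in each group no spread between animals could be measured and no test was made. Every interval below is a 95% interval that covers counting error only, and every difference is one between these 2 libraries. The NG2 promoter is not that of endothelial cells, and a Cspg4 UMI was found in 0 of 93 Normoxia and 0 of 189 Hypoxia endothelial cells. A UMI (unique molecular identifier) stands for 1 captured transcript, and levels are given as CPM, the UMIs of a gene scaled to a fixed total of all UMIs in the same cells. The chemistry reads transcripts at their 3′ end and counts each one once whatever its length, so levels could be set side by side between genes, although capture may differ between them.

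The Normoxia and Hypoxia libraries held 1323874 and 1989423 UMIs, and 293 and 453 cells passed the filters, at a median depth of 3135 and 2818 UMIs. Joint clustering without the junction genes gave 14 clusters, of which 3 were named endothelial by their markers. The libraries shared 2 cell barcodes. All 12 endothelial markers, none of them a junction gene, were detected in the endothelial cells of each library, and summed to 17643 CPM (Normoxia) and 13486 CPM (Hypoxia). Of other cell types, red blood cell markers were highest in the Normoxia endothelial cells, at 597 CPM (Hbb-bs in 53 of 93 cells). They stood at 229 CPM in Hypoxia, where epithelial markers were highest. Epithelial markers were at 131 and 249 CPM (Scgb1a1 in 19 and 76 cells) and fibroblast markers at 111 and 22.9 CPM, and 0 and 2 of 9 T or NK cell markers had a UMI. These markers differed between the libraries, and their part in the ratios below was not tested.

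Endothelial cells are joined by adherens junctions, built on VE-cadherin, and by tight junctions, built on claudins and occludin, and scaffold proteins tie both to the actin skeleton. Other members of the immunoglobulin superfamily, among them PECAM-1, ESAM and the JAM proteins, sit at the same contacts and take part in leukocyte passage. In the lung capillary bed, Car4 marks the large thin cells known as aerocytes, whereas other capillary cells carry genes such as Gpihbp1 and Plvap.

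Of the 282 endothelial cells, 79 were Car4-positive, 111 Ntrk2-positive and 79 had neither transcript, and 13 had equal counts of both genes and entered only the pooled class. The mix differed between the libraries. Car4-positive cells made up 44.1% of the Normoxia endothelium (41 cells, exact interval 33.8 to 54.8%) and 20.1% of that in Hypoxia (38 cells, 14.6 to 26.5%). Ntrk2-positive cells made up 6.45% (6 cells, 2.40 to 13.5%) in Normoxia and 55.6% (105 cells, 48.2 to 62.8%) in Hypoxia, and cells with neither 46.2% (43 cells) and 19.0% (36 cells). Normoxia values for Ntrk2-positive cells therefore rest on 6 cells. Ntrk2, which sets the subsets, itself differed between the libraries, at 47.7 CPM in Normoxia and 743 CPM in Hypoxia endothelial cells. Among Car4-positive cells, 1 of 41 in Normoxia and 15 of 38 in Hypoxia had an Ntrk2 UMI. Whether a subset holds the same kind of cell in both libraries was not tested. Clustering grouped the same cells in another way, into a cluster led by Car4, Fibin and Ednrb (19 Normoxia and 20 Hypoxia cells, all Car4-positive), a cluster led by Plvap (44 and 31) and a cluster led by Ntrk2 (30 and 138).

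Cldn5, which encodes claudin-5, the main tight junction claudin of endothelium, lies on chromosome 16 (GRCm38, 16:18776847-18778262, forward strand) and had the highest level of the 8 genes. The results turn mostly on this gene, so its promoter is shown, from 250 bases before to 50 bases after the start of the RefSeq transcript (GRCm38.p6, chr16:18776597-18776896, forward strand), with capitals marking the CCAAT box on either strand.
Cldn5: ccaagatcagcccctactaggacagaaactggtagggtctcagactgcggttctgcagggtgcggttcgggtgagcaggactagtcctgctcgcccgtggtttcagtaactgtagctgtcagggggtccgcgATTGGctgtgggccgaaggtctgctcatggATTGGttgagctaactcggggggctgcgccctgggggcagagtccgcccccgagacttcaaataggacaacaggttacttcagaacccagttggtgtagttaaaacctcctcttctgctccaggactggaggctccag
The window held 2 CCAAT boxes, 2 CACCC boxes and 1 GC box (GGGCGG), and neither the hypoxia response core ACGTG nor the ETS core CAGGAA, each searched on both strands. CCAAT was found in 37.4% of 32851 mouse promoter windows of this length, CACCC in 57.5%, GGGCGG in 35.7%, ACGTG in 19.6% and CAGGAA in 30.6%. RefSeq windows matched 4 of the 8 genes, Cldn5, F11r, Tjp1 and Ocln, and ACGTG was found once, in the Tjp1 window. A match of letters is a description and not a site.

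All 8 genes were detected in the endothelial cells of both libraries, in the same order of level from the first gene to the fourth. In Normoxia Cldn5 stood at 7270 CPM, Cdh5 at 1937, Pecam1 at 1396 and Esam at 1229. Tjp1 and F11r followed at 262 CPM each, and Ocln and Jam2 were lowest at 75.6 and 55.7 CPM. Intervals of neighbouring genes overlapped for Pecam1 (1254 to 1550) and Esam (1096 to 1374), for Tjp1 and F11r, and for Ocln and Jam2, so these pairs were not separated by counting error. In Hypoxia the order was Cldn5, Cdh5, Pecam1, Esam, F11r, Tjp1, Jam2 and Ocln, and F11r with Tjp1 again had overlapping intervals, whereas Jam2 (90.7 to 147 CPM) and Ocln (48.1 to 91.0 CPM) barely did.

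Lymphocytes, which lack endothelial junctions, gave the level of free RNA and mixed cells. Cldn5 had 41 UMIs in 44 Normoxia lymphocytes (198 CPM) and 13 UMIs in 130 Hypoxia lymphocytes (33.1 CPM). In Normoxia 37 of the 41 UMIs sat in 1 T or NK cell, and 9 Cdh5 and 9 Esam UMIs were also each held by 1 cell. Jam2 and Ocln had 0 UMIs in both sets of lymphocytes, which allows up to 14.5 CPM in Normoxia and 7.63 CPM in Hypoxia. Pecam1, also made by blood cells, had the highest Hypoxia lymphocyte level at 120 CPM, after 145 CPM in Normoxia.

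Endothelial cells stood above this background for every gene. Cldn5 was 36.6-fold (26.9 to 51.2) and 142-fold (82.6 to 266) higher than in lymphocytes of Normoxia and Hypoxia, and Cdh5 44.5-fold and 340-fold, the latter against only 2 UMIs. Pecam1 had the smallest fold among genes with lymphocyte UMIs, 9.61 (6.61 to 14.5) and 11.7 (8.75 to 16.1). Jam2 was at least 3.83-fold and at least 15.2-fold higher, and Ocln at least 5.20-fold and at least 8.80-fold, against a floor of 3 counts in the lymphocytes of each library.

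**Figure D1:**
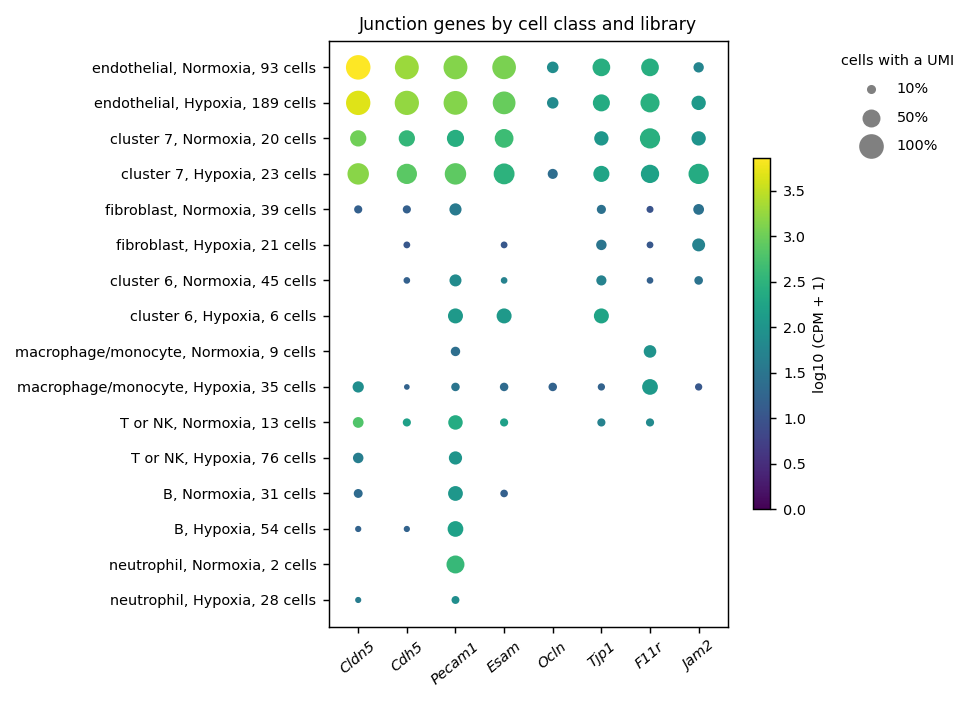
Junction genes in 8 cell groups of each library. Dot area is the percent of cells with a UMI and colour is log10 of CPM plus 1, with no dot where no UMI was found. The endothelial rows carry the largest and brightest dots for Cldn5, Cdh5, Pecam1 and Esam, Jam2 is highest in the unnamed cluster 7 of Hypoxia at 231 CPM, Pecam1 is also seen in lymphocytes and neutrophils, F11r in macrophages or monocytes, and Jam2 in fibroblasts, at 27.1 and 51.4 CPM.

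Most endothelial cells carried several of these transcripts. After each cell was thinned to 1000 UMIs, 89 Normoxia and 182 Hypoxia endothelial cells remained (4 and 7 were too shallow), with a median of 4 of the 8 genes per cell in both, and no endothelial cell had 0 of them. At least 4 genes were seen in 68.5% of Normoxia and 58.8% of Hypoxia cells. By contrast, 86.4% of 44 Normoxia and 82.2% of 129 Hypoxia thinned lymphocytes had none. A Cldn5 UMI was present in 97.8% (92.1 to 99.7%) of the Normoxia cells thinned in this way and 94.5% (90.1 to 97.3%) of those from Hypoxia, and in 98.9% and 97.4% before thinning, against 11.4% and 10.0% of lymphocytes with a median of 3889 and 2475 UMIs.

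Hypoxia was then compared with Normoxia over all endothelial cells. Claudin-5 transcripts were lower and Jam2 transcripts higher in Hypoxia, and the other 6 genes differed by less than 1.5-fold. Cldn5 was at 7270 CPM (6941 to 7611, 1828 UMIs) in Normoxia and 4679 CPM (4509 to 4853, 2859 UMIs) in Hypoxia, giving a log2 ratio of -0.64 (-0.72 to -0.55), and the intervals of its levels did not overlap. Single cells overlapped widely: the lowest, median and highest cell had 0, 6873 and 22835 CPM in Normoxia and 0, 4142 and 23562 CPM in Hypoxia. Jam2, which encodes a junctional adhesion molecule of endothelium, had 14 UMIs (55.7 CPM) in Normoxia and 71 UMIs (116 CPM) in Hypoxia, giving a log2 ratio of 1.06 (0.22 to 2.00). It was seen in 13 of 93 and 57 of 189 cells, so the difference rests on few transcripts. Within each of the 3 subsets and 3 clusters the interval of the Jam2 ratio held 0. By cluster the ratio was 1.61 (-0.01 to 3.93) in the Ntrk2 cluster and 1.11 in the Car4 cluster, on 1 and 3 UMIs. In the Plvap cluster it was 0.06 (-1.42 to 1.51), on 10 and 9 UMIs.

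These counts match the share found among all genes. Of 5930 genes with 20 or more UMIs in the libraries together, 14.6% were at least 1.5-fold higher and 14.6% at least 1.5-fold lower in Hypoxia, against 1 higher and 1 lower of 8 junction genes, so the count of members is no result about them. The median log2 ratio was -0.17 over the 8 genes and -0.01 over all 5930. Cldn5 lay above 13.1% and Jam2 above 95.2% of all genes by log2 ratio. Depth was similar, with a median of 2486 and 2802 UMIs in the endothelial cells, but the summed endothelial markers were lower in Hypoxia as well, as given above, and their part in the Cldn5 ratio was not tested. Fewer transcripts per cell and more transcripts of other genes cannot be told apart in CPM.

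Among the adherens and immunoglobulin genes the differences were smaller. Cdh5, which encodes VE-cadherin and lies at 8:104101625-104144511, was at 1937 and 1728 CPM in Normoxia and Hypoxia, giving a log2 ratio of -0.16 (-0.32 to -0.01). Its ratio was 0.036 when an unnamed cluster with endothelial markers (cluster 7) was counted in. Esam, an endothelial adhesion molecule of tight junctions at 9:37528078-37538319, was at 1229 CPM (309 UMIs) and 934 CPM (571 UMIs), giving a log2 ratio of -0.40 (-0.60 to -0.19). With subset shares held equal the Esam ratio was -0.14. Within the Car4-positive (-0.02), Ntrk2-positive (-0.34, on 15 Normoxia UMIs) and neither (-0.13) subsets every interval held 0. By cluster, the Esam ratio was -0.51 (-0.87 to -0.14) in the Ntrk2 cluster and -0.41 (-0.82 to -0.01) in the Plvap cluster. In the Car4 cluster it was -0.06 (-0.45 to 0.33). Pecam1 (11:106654217-106750628, reverse strand), which encodes the adhesion molecule CD31, was at 1396 and 1402 CPM, with an interval of the log2 ratio from -0.17 to 0.19. VE-cadherin transcripts could include reads of Gm29682 on the other strand if strand was ignored in counting.

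The scaffold and transmembrane tight junction genes were sparse. Tjp1, the ZO-1 scaffold (7:65296165-65527781, reverse strand), had 66 and 138 UMIs, 262 and 226 CPM, and a log2 ratio of -0.22 (-0.65 to 0.23), which was 0.68 when cells were thinned to 1000 UMIs. F11r, which encodes JAM-A (1:171437535-171464603), had 66 and 170 UMIs, 262 and 278 CPM, and a ratio of 0.08 (-0.33 to 0.52). Ocln, occludin (13:100496507-100552718, reverse strand), had 19 and 41 UMIs, 75.6 and 67.1 CPM, and a ratio of -0.17 (-0.99 to 0.70). A ratio as low as that of Cldn5 lay within the intervals of Tjp1 and Ocln and outside that of F11r. Tjp1 overlaps the annotated genes Gm44794 and Gm44792 on its own strand, and Jam2 (16:84774123-84825928) overlaps Gm25908, so their counts are less certain.

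**Figure D2:**
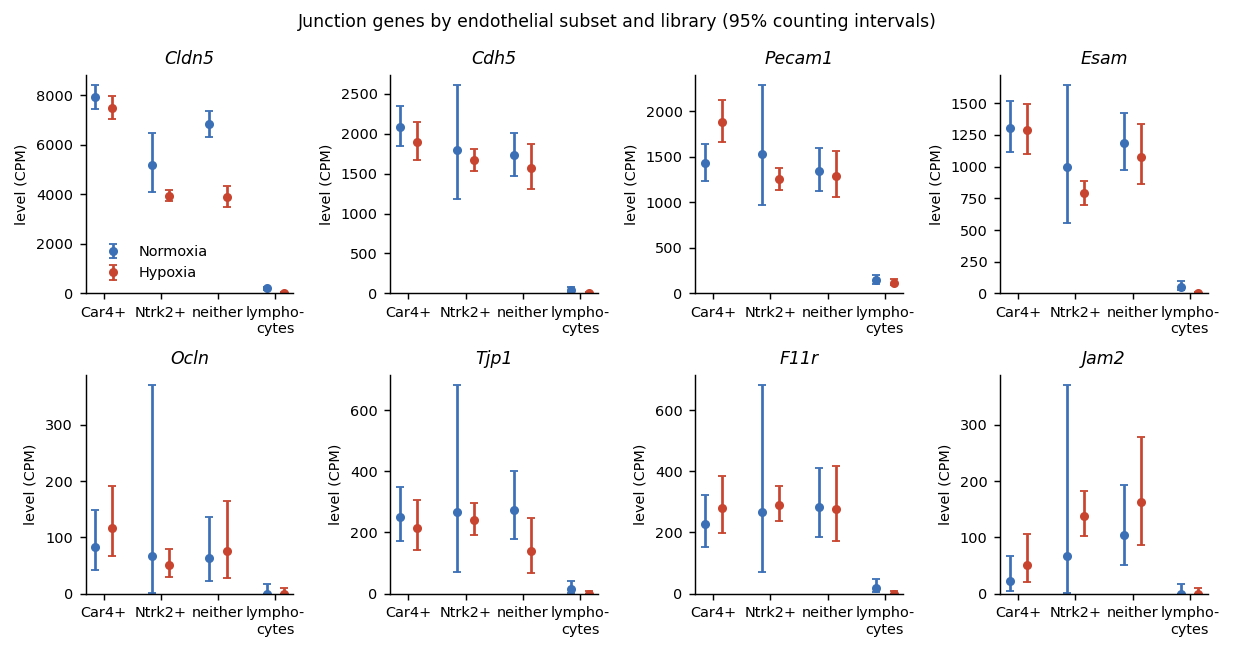
Level in CPM of each gene in the Car4-positive, Ntrk2-positive and neither subsets and in lymphocytes, for Normoxia (blue) and Hypoxia (red). Points are UMI sums over cells divided by all UMIs of those cells, and bars are 95% counting intervals. Cldn5 in cells with neither transcript is at 6827 CPM in blue and 3894 CPM in red, and the bars of Ntrk2-positive Normoxia cells are wide because there were 6 of them.

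The log2 ratio of Cldn5 ran from -0.81 to -0.08 over the subsets, which may not hold the same kinds of cell in both libraries. In Car4-positive cells Cldn5 was at 7924 CPM (7452 to 8418) in Normoxia and 7505 CPM (7051 to 7979) in Hypoxia, giving a log2 ratio of -0.08 (-0.20 to 0.05) whose interval held 0. In cells with neither transcript it was at 6827 CPM (6313 to 7373) and 3894 CPM (3472 to 4352), giving a log2 ratio of -0.81 (-1.01 to -0.61). The intervals of these ratios did not overlap. Of the cells with neither transcript, 21 of 43 in Normoxia and 27 of 36 in Hypoxia lay in the Ntrk2 cluster. Among them Cldn5 had a ratio of -0.80 (-1.07 to -0.53) inside that cluster. Outside it, on 22 Normoxia and 9 Hypoxia cells, Cldn5 had a ratio of -0.65 (-0.99 to -0.33). In Ntrk2-positive cells it was at 5186 CPM in the 6 Normoxia cells and 3950 CPM in the 105 Hypoxia cells, giving a log2 ratio of -0.39 (-0.72 to -0.04), which turned to 0.52 when single cells were chosen by endothelial markers in place of clusters.

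The clusters gave a similar picture for this gene. Cldn5 was at 10269 and 9063 CPM in the Car4 cluster of Normoxia and Hypoxia, giving a log2 ratio of -0.18 (-0.34 to -0.02). In the Plvap cluster it was at 6503 and 4510 CPM (-0.53, -0.69 to -0.37), and in the Ntrk2 cluster at 6030 and 3859 CPM (-0.64, -0.80 to -0.48). Car4-positive cells outside the Car4 cluster had 6015 and 5101 CPM, giving a log2 ratio of -0.24 (-0.46 to -0.02). With the share of each subset held equal between the libraries, the ratio over all endothelial cells was -0.38 in place of -0.64. That value gives more weight to the 6 Normoxia Ntrk2-positive cells and leaves out cells with equal counts of both genes. The part of the mix of subsets in the pooled difference was not tested.

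**Figure D3:**
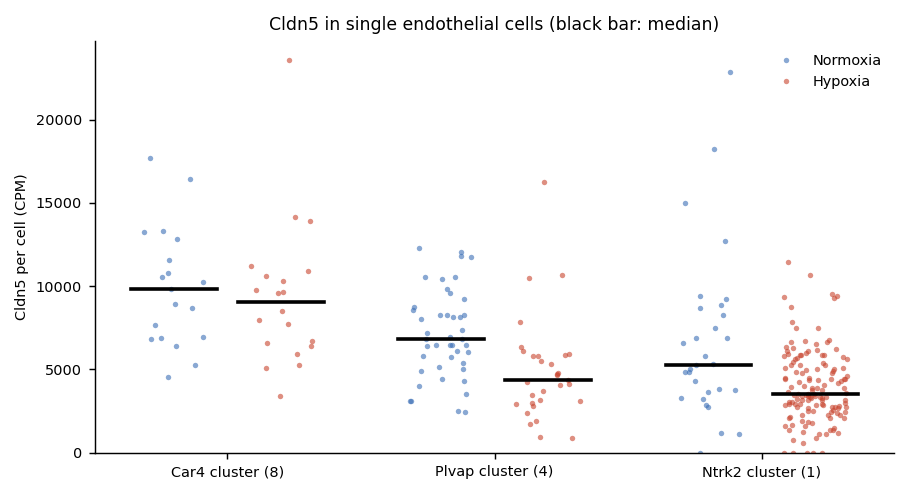
Cldn5 in CPM in each endothelial cell, by cluster and library, with the median as a black bar. The Car4 cluster is highest in both libraries with medians of 9840 and 9056 CPM, the medians of the Plvap cluster are 6844 and 4383 CPM and those of the Ntrk2 cluster 5285 and 3523 CPM, and the points of the libraries overlap in every cluster.

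In Car4-positive cells 0 of 7 genes with at least 20 UMIs were past 1.5-fold, against 12.7% of 2570 genes higher and 15.4% lower. Pecam1 was at 1428 CPM (189 UMIs) in Normoxia and 1882 CPM (256 UMIs) in Hypoxia, giving a log2 ratio of 0.40 (0.12 to 0.68). Within the Car4 cluster it was at 1498 and 2266 CPM (0.60, 0.23 to 0.98), and without the Car4 cluster the Car4-positive ratio was -0.088. The higher Pecam1 level of Hypoxia Car4-positive cells thus rested on the cells of that cluster. Cdh5 was at 2028 and 1345 CPM in Car4-positive cells outside it (-0.59, -1.02 to -0.18), against 2085 and 1896 CPM over all Car4-positive cells.

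In cells with neither transcript 1 of 7 genes was at least 1.5-fold higher and 2 were lower in Hypoxia, against 13.7% and 18.1% of 1677 genes. The higher gene was Jam2, with 10 and 13 UMIs and a log2 ratio of 0.64 (-0.66 to 1.99). The lower ones were Cldn5 and Tjp1, the latter with 26 UMIs (273 CPM) in Normoxia and 11 UMIs (138 CPM) in Hypoxia and a ratio of -0.98 (-2.15 to 0.09). The intervals of Jam2 and Tjp1 held 0. In Ntrk2-positive cells 1 of 7 genes, Jam2, was at least 1.5-fold higher and 0 were lower, against 32.4% and 24.2% of 3308 genes. Jam2 there had 1 Normoxia and 49 Hypoxia UMIs, and the 6 Normoxia cells left its ratio between -1.49 and 6.38.

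**Figure D4:**
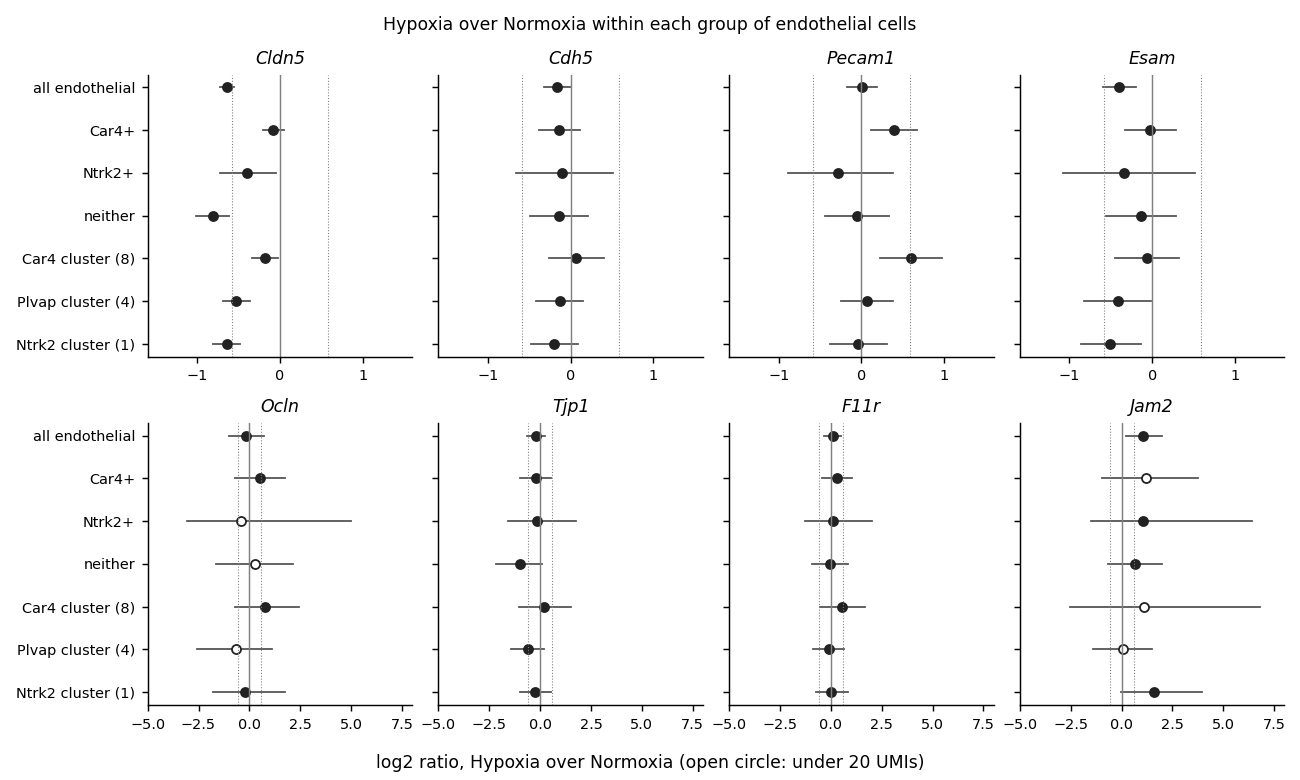
Log2 ratio of Hypoxia over Normoxia for each gene in all endothelial cells, the 3 subsets and the 3 clusters. Points are ratios, lines 95% counting intervals, dotted lines a 1.5-fold difference, and open circles genes under 20 UMIs, and the x axis is wider in the lower row. Cldn5 lies left of 0 in all 7 rows, with an interval that holds 0 only in Car4-positive cells.

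Subsets were also compared within each library. In Normoxia, Car4-positive cells had slightly more Cldn5 than cells with neither transcript, 7924 against 6827 CPM, giving a log2 ratio of 0.21 (0.07 to 0.36). None of 6 genes with enough UMIs was past 1.5-fold, against 18.1% of 2240 genes higher and 14.3% lower in Car4-positive cells. This ratio came to -0.18 without the Car4 cluster. Jam2 had 3 UMIs in the 41 Car4-positive and 10 UMIs in the 43 other cells, 22.7 and 105 CPM.

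In Hypoxia the Cldn5 ratio between these subsets was larger, with an interval clear of that in Normoxia. Cldn5 was at 7505 CPM in Car4-positive cells and 3894 CPM in cells with neither, giving a log2 ratio of 0.95 (0.76 to 1.13), which was 0.39 without the Car4 cluster. Of the 8 genes 3 were at least 1.5-fold higher in Car4-positive cells (Cldn5, Ocln and Tjp1) and 1, Jam2, was lower, against 21.6% and 17.2% of 2058 genes. Ocln had 16 and 6 UMIs (0.64, -0.79 to 2.28) and Tjp1 29 and 11 (0.63, -0.42 to 1.77), both with intervals that held 0. Pecam1 was at 1882 and 1294 CPM, giving a log2 ratio of 0.54 (0.21 to 0.88) that was -0.0050 without the Car4 cluster, and Jam2 at 51.5 and 163 CPM, giving a log2 ratio of -1.67 (-3.23 to -0.23).

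The share of cells with a Jam2 UMI was lower after thinning. Jam2 was seen in 3 of 41 Normoxia and 6 of 38 Hypoxia Car4-positive cells, compared with 9 of 43 and 13 of 36 cells with neither transcript, and 36 of 105 Hypoxia Ntrk2-positive cells. After thinning to 1000 UMIs it was seen in 1 of 41 Normoxia and 4 of 38 Hypoxia Car4-positive cells, in 6 of 39 and 4 of 34 cells with neither, and in 17 of 101 Hypoxia Ntrk2-positive cells. The thinned Hypoxia shares of Car4-positive cells (10.5%, 2.94 to 24.8%) and of cells with neither (11.8%, 3.30 to 27.5%) were not separated, but each rests on 4 cells with a UMI. Before thinning the Hypoxia Car4-positive cells were the deeper, with a median of 3430 UMIs against 2268 in cells with neither. The Car4 cluster itself held 1 and 3 Jam2 UMIs.

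Ntrk2-positive cells had less of 4 members than Car4-positive cells of the same Hypoxia library. Esam was at 791 and 1286 CPM, giving a log2 ratio of -0.70 (-0.98 to -0.42), Cldn5 at 3950 and 7505 CPM (-0.93, -1.04 to -0.81), Ocln at 50.6 and 118 CPM (-1.22, -2.27 to -0.15) and Pecam1 at 1255 and 1882 CPM (-0.58, -0.81 to -0.36). Pecam1 fell just short of a 1.5-fold difference, so 3 of 8 genes counted as lower and 1, Jam2 (1.42, 0.27 to 2.81), as higher, against 17.8% and 21.4% of 4133 genes. Cdh5, Tjp1 and F11r had intervals that held 0. For Esam, Pecam1 and Ocln the difference rested on the Car4 cluster: Hypoxia Car4-positive cells outside it had 785, 1289 and 37.4 CPM (Ocln on 2 UMIs), near the Ntrk2-positive levels, whereas Cldn5 was still higher there at 5101 CPM. Against cells with neither transcript, 1 of 8 genes was higher in Ntrk2-positive cells, Tjp1 (0.79, -0.12 to 1.85), and 0 were lower, against 19.3% and 12.4% of 3752 genes, and Esam was at 791 and 1080 CPM (-0.45, -0.80 to -0.08).

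A cluster left unnamed, cluster 7 (20 Normoxia and 23 Hypoxia cells), carried all 12 endothelial markers but was led by Scgb1a1, a secretory airway cell gene, and Vwf, a gene of large vessels. Cldn5 reached 1047 and 1473 CPM there in Normoxia and Hypoxia, below every endothelial cluster, with a log2 ratio of 0.49 (0.13 to 0.86). Pecam1 was at 259 and 789 CPM there (1.61, 0.96 to 2.31) and Cdh5 at 356 and 736 CPM (1.05, 0.47 to 1.66). The summed endothelial markers were also higher in Hypoxia there, 2807 and 7677 CPM. Fibroblast markers were at 5464 CPM in Normoxia and 201 CPM in Hypoxia, mesothelial markers at 1393 and 141 CPM, and epithelial markers at 94654 and 112711 CPM. The part of this mix of cells in the ratios was not tested. The unnamed cluster 14, led by lymphatic genes (4 and 6 cells), had Cldn5 at 3328 and 2966 CPM and 0 UMIs of Ocln and Jam2.

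The other genes of the junction were taken from 5 lists of 73 genes in all, of which 57 were detected in endothelial cells and 39 had at least 20 UMIs. Of these 39, 3 were at least 1.5-fold higher and 3 lower in Hypoxia, against the 14.6% in each direction given above, and their median log2 ratio was 0.12. Among 22 tight junction partners 3 had enough UMIs, and all 3 stayed within 1.5-fold. Amotl1, which encodes an angiomotin-like protein of cell junctions, was at 131 and 177 CPM (0.43, -0.14 to 1.04), and its relative Amotl2 was at 103 and 105 CPM (0.02, -0.66 to 0.74). Cldn1, Cldn11 and Cldn15 had 0 UMIs in endothelial cells of both libraries and Cldn12 had 0 and 2, so Cldn5 held nearly all UMIs of the claudins listed.

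Of 9 adherens junction partners with enough UMIs, 1 was lower, Vcl, which encodes the actin-linking protein vinculin, at 199 and 113 CPM (-0.82, -1.36 to -0.26). Within the Car4-positive (-0.16), Ntrk2-positive (-0.56) and neither (-0.32) subsets Vcl did not reach 1.5-fold, and each interval held 0. Ctnnb1, β-catenin, was at 203 and 278 CPM, giving a log2 ratio of 0.46 that did not reach 1.5-fold, and Ctnnd1, p120-catenin, was at 127 and 157 CPM (0.30, -0.29 to 0.93). Of 18 junction regulators 1 was higher, Rapgef1 with 6 and 32 UMIs (1.13, -0.14 to 2.68), and 1 lower. The lower one was Plvap, the protein of endothelial diaphragms, at 1487 CPM in Normoxia and 229 CPM in Hypoxia (-2.70, -2.99 to -2.41), the largest difference among the 39 genes. Plvap led the cluster that held 44 Normoxia and 31 Hypoxia cells. Its ratio was -4.98 (-6.63 to -3.73) in Car4-positive cells, on 5 Hypoxia UMIs, and -1.59 (-2.05 to -1.15) in cells with neither transcript. In Ntrk2-positive cells it was -1.18 (-2.30 to 0.18), an interval that held 0. Rap1b, a small GTPase acting on VE-cadherin contacts, was at 513 and 357 CPM (-0.52, -0.84 to -0.20). Its ratio was -0.02 in Car4-positive and -0.29 in Ntrk2-positive cells, with intervals that held 0. In cells with neither transcript it was -0.99 (-1.80 to -0.23). Robo4 was at 71.6 and 106 CPM (0.57, -0.20 to 1.41).

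Of 7 leukocyte passage genes with enough UMIs 1 was lower, Cd47, at 1058 and 658 CPM (-0.69, -0.91 to -0.46), but at 1178 and 1220 CPM in Car4-positive cells (0.05, -0.27 to 0.37). Icam2, a ligand for leukocyte integrins, was at 2140 and 1740 CPM (-0.30, -0.45 to -0.15), with the other sign in Car4-positive (0.28, 0.07 to 0.49) and Ntrk2-positive cells (0.36, -0.38 to 1.21). Over all endothelial cells Cd34 (0.54, 0.24 to 0.85) and Podxl (0.46, 0.15 to 0.78), both sialomucins, were higher by less than 1.5-fold. Within each subset Cd34 was past 1.5-fold. Its ratio was 1.19 (0.82 to 1.57) in Car4-positive cells. It was 0.74 in Ntrk2-positive cells and 0.82 in cells with neither, where the intervals held 0. Podxl was at 0.45, -0.46 and 0.62 in the same subsets, each with an interval that held 0. Both gap junction genes with enough UMIs were higher in Hypoxia. Gja4, connexin 37, was at 199 and 358 CPM (0.85, 0.40 to 1.32), but at 378 and 327 CPM in cells with neither transcript (-0.21, with an interval that held 0), and Gjc1 had 3 and 33 UMIs (2.18, 0.51 to 4.53). Gja4 was among the 10 leading genes of the Ntrk2 cluster, the cluster that held 30 Normoxia and 138 Hypoxia cells. Of 8 epithelial junction genes, kept as markers of another cell type, 7 had 0 UMIs in endothelial cells of both libraries.

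**Figure D5:**
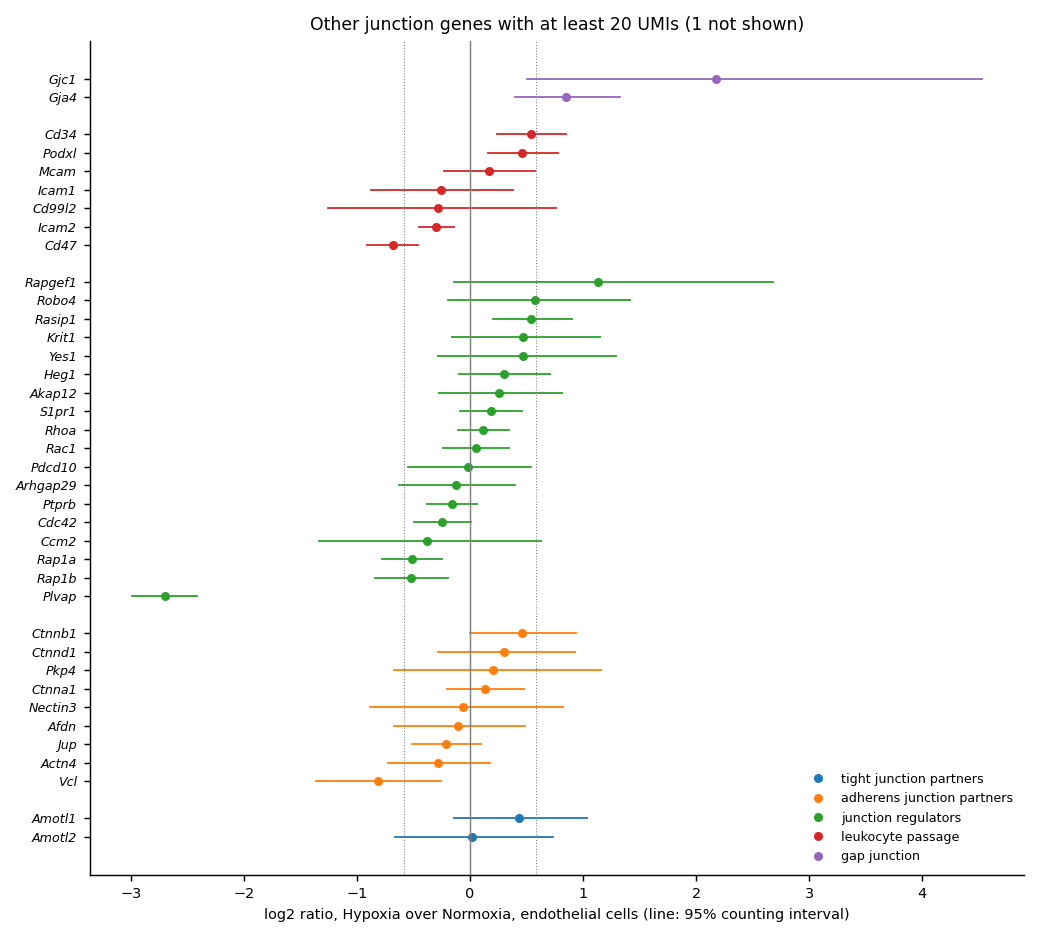
Log2 ratio of Hypoxia over Normoxia in endothelial cells for the listed junction genes with at least 20 UMIs, less 1 that is not shown, coloured by list, with 95% counting intervals and dotted lines at 1.5-fold. Plvap stands far to the left at -2.70 and Gjc1 farthest to the right at 2.18, with most of the others between the dotted lines.

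For each member with at least 100 UMIs, the genes whose level followed it most closely were sought over 10 class and library pairs, as Pearson's r of log2 (CPM + 10) among 6691 genes. The points share libraries and the endothelial class sets most of the range, so r is a description only. Cldn5 was nearest to Rgs12, Pllp and Amigo2 (r = 0.98 for each), and Esam to Nostrin (0.99), Rgs12 and Pllp. Cdh5 was nearest to Myct1, Adcy4 and Tspan7 (0.99 each), Tjp1 to Nkd1 (0.99), Kitl and Cavin2, and F11r to Flt1 (0.98), Stx3 and Cd36. Pecam1 had the weakest likeness, 0.92 to Nipal3, Otud4 and Arl2bp, and it was also the gene with the highest level in lymphocytes of Hypoxia.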

How the data were processed

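Gene expression was measured in 1 Normoxia and 1 Hypoxia library with the Chromium Single Cell 3′ v3.1 chemistry. The authors deposited raw UMI counts for each gene and cell barcode, without normalization. Cell Ranger 3.1.0 made the matrices, per the file headers, and the study's methods name STAR and mm10. The labels give a tdT sort from NG2tdT lungs, whereas the study's text describes whole-lung cells of WT animals depleted of CD45+ and CD326+ cells.

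The filters kept barcodes with 200 to 6000 genes and no more than 5% mitochondrial UMIs. Cells were clustered with scanpy 1.11.5 (2000 variable genes without the junction genes, 15 components, resolution 1.0). Clusters were named by marker lists that hold no member. The members and lists were chosen with earlier results of these data known, and the naming rule was chosen with the clusters in view. It asked for at least 3 markers, each detected in at least 25% of cells and at 2 times the median CPM over clusters. It also asked for 2 times as many markers as the next class. A cluster stayed unnamed if another class had more markers among its 10 leading genes, which left out cluster 7, led by Scgb1a1. So did a cluster of mostly shallow cells with no leading marker of its class. UMIs were summed per library and subset. Levels have exact Poisson intervals, ratios exact conditional binomial intervals and shares exact Clopper-Pearson intervals. A count of 0 was taken to allow 3 counts. No test was made, since cells do not stand for replicates. Named genes of the lists were the 2 highest and 2 lowest ratios in each; 1 gene is not reported here. Doublets were not removed. Positions come from GENCODE M21 on GRCm38, matched by gene identifier, and promoters from RefSeq. Ratio intervals were tried on counts simulated with Poisson error alone, the error that they assume. The simulation had no spread between cells or animals, so it says nothing about such spread. There were 22 alternatives, 2 of them chosen after seeing the data.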

Additional observations from a re-analysis of the deposited data

Results flagged for a closer look

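The barcodes left out by the filters also held junction gene transcripts. The 8 genes together stood at 1173 CPM (248 UMIs) in the 80 Normoxia barcodes left out and at 2084 CPM (828 UMIs) in the 160 Hypoxia barcodes left out, above the 474 and 158 CPM of lymphocytes in the same libraries. All of these UMIs were in barcodes above the mitochondrial maximum, 51 in Normoxia and 141 in Hypoxia, and 12 and 40 of those barcodes had at least 4 of the 8 genes.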

How the results depend on the processing

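The 22 alternatives gave 977 values for 51 results. Of these, 898 stayed within the reported interval, or within 1.5-fold of a reported count, and 74 moved outside it. The 898 include values that an alternative could not change, such as a log2 ratio under a fold of 2. Ratios over all endothelial cells under another subset rule are also of this kind. The 898 are therefore no measure of stability. Where the reported interval held 0, a change of sign was not counted apart. Ocln (up to 0.39) and Tjp1 (up to 0.68) in endothelial cells are examples. The other 5 values changed sign although the reported interval excluded 0. Those 5 were Cldn5 in Ntrk2-positive cells (0.52 with single cells chosen by endothelial markers), Cdh5 in endothelial cells (0.036 with cluster 7 counted in) and, without the Car4 cluster, Pecam1 in Car4-positive cells (-0.088) and the ratio of Car4-positive over neither for Cldn5 in Normoxia (-0.18) and Pecam1 in Hypoxia (-0.0050). The log2 ratio of Cldn5 in endothelial cells ran from -0.69 to -0.38 and that of Jam2 from 0.79 to 1.20. The number of members past the fold was 1 in place of 2 without mitochondrial or ribosomal genes in the total, with subset shares held equal, with a fold of 2 and with cluster 7 counted in, and 3 when thinned to 1000 UMIs. The number of listed junction genes past the fold, 6 as reported, was 11 with a mitochondrial maximum of 10% or none, with equal weight per cell, thinned to 1000 UMIs, without cells holding a marker of another type, with a minimum of 10 UMIs and with cluster 7 counted in. It was 12 with single cells by endothelial markers, 10 without mitochondrial or ribosomal genes in the total and without the top cell of each gene, and 3 with a fold of 2. The members' median was 0.78 in Ntrk2-positive cells and -0.67 in cells with neither when single cells were chosen by endothelial markers. The causes were not tested. No paired analysis was possible because each group had 1 library. Depth limited Ocln, Jam2 and the 6 Normoxia Ntrk2-positive cells most.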
